A study of Danio rerio with 15 samples.

Results

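The visual cycle is the chain of reactions that returns bleached retinal to its light-sensitive cis form, and it runs between photoreceptors, the retinal pigment epithelium (RPE) behind them and the Müller glia of the retina. Light turns cis-retinal into all-trans-retinal in the outer segments. ABCA4 flips it across the disc membrane, RDH8 reduces it to retinol, and interphotoreceptor retinoid-binding protein (RBP3) carries retinoids through the matrix between the cells. In the RPE, STRA6 takes up retinol from the blood, RPE65 isomerizes retinyl esters, RDH5 oxidizes the cis-retinol, and CRALBP, the product of the rlbp1 genes, binds the cis-retinoids. These roles are known mainly from mammals, and the zebrafish keeps duplicates of several of the genes. The 10 genes described here, rpe65a, rlbp1a, rlbp1b, rdh5, rdh8a, rdh8b, rbp3, stra6, abca4a and abca4b, were found by symbol among the 36351 genes of a deposited comparison of TCPMOH and DMSO larvae. Each symbol had 1 entry.

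The series exposed wild-type AB zebrafish through the water from 96 to 100 hours post fertilization (hpf), for 4 hours. Whole animals at 100 hpf were pooled, 8 to 10 to a library, after 50 nM tris(4-chlorophenyl)methanol (TCPMOH), a chlorinated contaminant, or after the solvent alone, dimethyl sulfoxide (DMSO) at 0.01% v/v, with 5 libraries of each. Another 5 libraries of larvae given 50 nM tris(4-chlorophenyl)methane (TCPM) were not analysed here. The animals carried no transgene or mutation named in the labels. The pools were whole bodies, so expression outside the eye counts too, and fewer cells of a type and less RNA per cell cannot be told apart.

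The deposited table holds the authors' DESeq2 statistics per gene and no value per library. Values of single pools can therefore not be shown. The spread between pools enters only through the standard error (SE) and the statistics derived from it, and the SE is no direct measure of that spread. The base mean is the average DESeq2-normalized count over the fitted libraries and is not scaled to gene length, so base means are given as the depth behind a value and not as levels to rank genes by. Signs are printed as deposited. The header does not name the numerator of the fold change, so a negative value means lower with TCPMOH only if DMSO was the denominator, and higher with TCPMOH if DMSO was the numerator. The name of the comparison puts DMSO first, and the column names resemble those of the Galaxy version of DESeq2, which by default takes the first-named level as numerator. Neither settles the direction, which is the same for all genes.

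Of the 10 visual cycle genes, 1 (rdh8b) passed the DESeq2 Wald test of the authors' deposited table at a Benjamini-Hochberg adjusted p under 0.05, against 2.68% of all tested genes. By sign, 1.92% of all tested genes were called with a negative fold change, as rdh8b was, and 0.758% with a positive one. All 10 had an adjusted p, so none was lost to the filter on low means. The whole table had 516 calls among 19257 tested genes, 370 negative and 146 positive. With all fold changes shifted by 0.05 log2 units to make the summed values of the groups equal, 218 were negative and 355 positive. Those sums were not observed but rebuilt from the base means and deposited fold changes. The rebuilding took each base mean as the average of the DMSO and TCPMOH groups at equal weight, and the fold changes as free of any prior. Neither is stated by a source used here. At an unadjusted p under 0.05, 2 of the 10 passed, beside 13.0% of all tested genes. The 10 genes split evenly by sign, 5 negative and 5 positive, and their median log2 fold change was -0.05, against -0.0016 for all tested genes. Their median absolute log2 fold change was 0.134, where all tested genes had 0.0768. These medians were not matched for SE or depth, and the members were chosen with earlier results of these data known.

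The gene called was rdh8b, one of the zebrafish copies of the photoreceptor enzyme that reduces all-trans-retinal after bleaching. The authors' deposited table lists it with a log2 fold change of -0.38 (SE 0.0872; DESeq2 adjusted p = 0.00154), a 1.30-fold difference, at a base mean of 282 normalized counts. With DMSO as the denominator rdh8b would be lower in TCPMOH larvae than in DMSO larvae, and with DMSO as the numerator it would be higher in TCPMOH larvae. Its 95% interval ran from -0.55 to -0.21, and by p-value it stood at rank 155 of 19257. The SE was an ordinary one for its depth, above that of 34.1% of the 2113 tested genes whose base means lay within 1.2 times its own. The call was lost when the Wald statistics of all genes were centred and divided by their own robust spread of 1.30 (adjusted p = 0.0997 from the DESeq2 statistics). That scaling left 122 calls among all 19257 tested genes, where 516 were called as deposited. Over the alternatives run, the adjusted p of rdh8b lay between 0.00137 and 0.0997.

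The gene rdh8b lies on chromosome 1 from 59272575 to 59303460 on the plus strand, in the coordinates as deposited. Of its span, 14933 bp overlap col5a3b, a collagen gene on the opposite strand with a base mean of 4238. The overlap is of whole spans, and whether exons of these genes overlap was not examined. No source used here states whether counting used the strand of the reads. Whether reads of col5a3b entered the count of rdh8b is therefore not known. The authors' deposited table gives col5a3b a log2 fold change of -0.02 (SE 0.0669; DESeq2 adjusted p = 0.948).

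Its duplicate rdh8a, which encodes the same kind of reductase, had the value nearest to 0 of all 10 genes. The authors' deposited table gives rdh8a a log2 fold change of 0.01 (SE 0.0750; DESeq2 adjusted p = 0.965) at a base mean of 603. The 95% interval of rdh8a, from -0.13 to 0.16, and that of rdh8b do not overlap. The estimates of rdh8b and rdh8a were 0.39 log2 units apart. No test of that gap can be had without library values, since the estimates share libraries and their covariance is unknown. Entries on the opposite strand with spans of many megabases cover rdh8a, among them sc:d0202 with a base mean of 601. In all, 6 of the 10 genes share some of their span with another entry of the table. The share of all genes that do so was not counted. For stra6 the overlapping entries had base means of only 3.78 and 6.28. For rlbp1b they were the same entries and another with a base mean of 0.

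The other photoreceptor transporter and carrier genes had positive values, and none was called. The abca4 genes encode the flippase that clears retinal from the disc membrane. By the authors' deposited table abca4b stood at 0.22 (SE 0.0820; DESeq2 adjusted p = 0.150), with a 95% interval of 0.06 to 0.38 and a base mean of 760. Its deposited span is 15203318 to 15294707 on the plus strand of chromosome 2. It was the second of the 10 with an unadjusted p under 0.05, at 0.00767, and it passed with all fold changes shifted to equal sums (0.27; adjusted p = 0.0433 from the DESeq2 statistics). After that shift 573 of all 19257 tested genes were called, 355 of them positive, where 146 were positive as deposited. The duplicate of abca4b, abca4a, had a log2 fold change of 0.13 (SE 0.0875; DESeq2 adjusted p = 0.571) according to the authors' deposited table. The intervals of the copies overlap widely, since that of abca4a ran from -0.04 to 0.30.

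The matrix carrier gene rbp3 had the greatest read support of the 10, with a base mean of 8395. Per the authors' deposited table it stood at 0.12 (SE 0.0809; DESeq2 adjusted p = 0.566), with a 95% interval from -0.04 to 0.28. Its SE was above that of 50.0% of the 152 tested genes within 1.2 times its base mean.

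**Figure D1:**
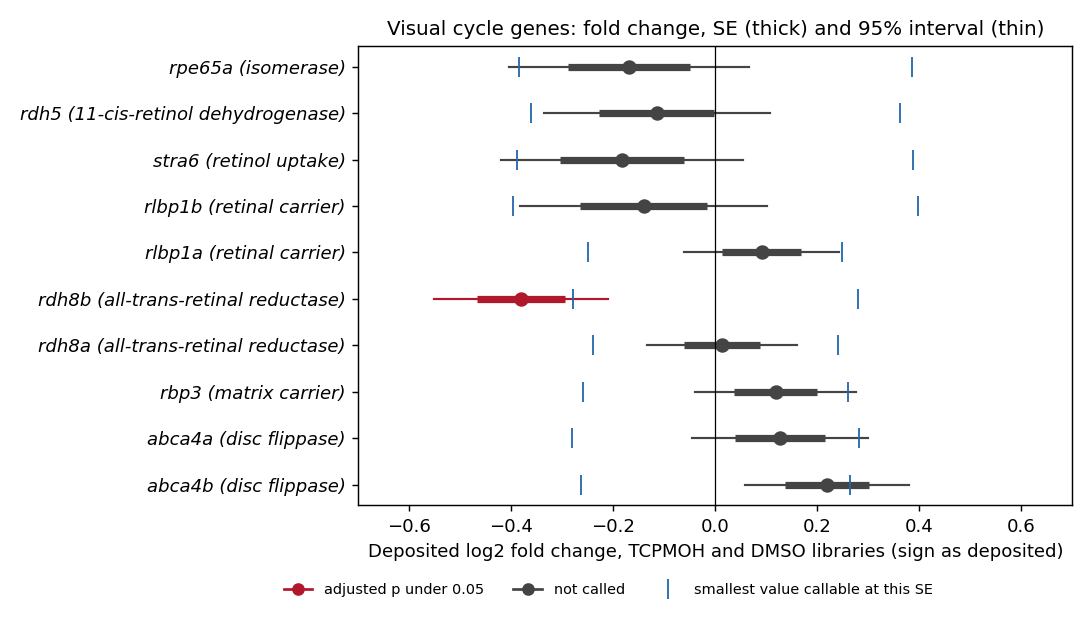
Deposited log2 fold change of each visual cycle gene (x axis; TCPMOH and DMSO libraries, sign as deposited), with the SE as a thick bar and the 95% interval as a thin one; blue ticks mark the smallest absolute value that could have been called at that SE. The interval of rdh8b lies wholly below 0 and that of abca4b wholly above it, rdh8b alone passes its tick, and the ticks of rpe65a, rdh5, stra6 and rlbp1b lie farthest out.

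The RPE genes rpe65a, stra6 and rdh5 had negative values, none of them called. The isomerase gene rpe65a, whose enzyme makes the cis-retinol of the cycle, had a log2 fold change of -0.17 (SE 0.120; DESeq2 adjusted p = 0.584) according to the authors' deposited table, at a base mean of 2791. Its deposited span is 1428696 to 1443692 on the minus strand of chromosome 2. The retinol receptor gene stra6 stood at -0.18 (SE 0.121; DESeq2 adjusted p = 0.547) according to the authors' deposited table, at a base mean of 823. Its deposited span is 22571475 to 22634675 on the plus strand of chromosome 25. For rdh5, which encodes the dehydrogenase that follows the isomerase, the authors' deposited table gives -0.11 (SE 0.113; DESeq2 adjusted p = 0.715) at a base mean of 764. Its deposited span is 10110358 to 10122714 on the minus strand of chromosome 22. These misses leave room for sizeable differences: the 95% intervals ran from -0.40 to 0.07 for rpe65a, from -0.42 to 0.05 for stra6 and from -0.34 to 0.11 for rdh5. On the same strand, 1137 bp at one end of rdh5 overlap gls2b, and how reads there were divided is uncertain.

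The carrier copies rlbp1a and rlbp1b, which in zebrafish are divided between the RPE and the Müller glia, had opposite signs. In the authors' deposited table rlbp1b stood at -0.14 (SE 0.124; DESeq2 adjusted p = 0.678) at a base mean of 1211. Its deposited span is 19105804 to 19118129 on the plus strand of chromosome 25. The authors' deposited table gives rlbp1a as 0.09 (SE 0.0775; DESeq2 adjusted p = 0.667) at a base mean of 534. Its deposited span is 13867722 to 13884610 on the minus strand of chromosome 7. Their intervals overlap, from -0.38 to 0.10 for rlbp1b and from -0.06 to 0.24 for rlbp1a, and neither interval excludes 0. Although rlbp1b had the higher base mean, its SE was 1.60 times that of rlbp1a.

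The genes fell apart in their SE. For a given base mean, and without a prior on the fold changes, a wide SE in DESeq2 comes from a high fitted dispersion between libraries. With the normal prior inferred below, the SE would rise and then fall again as dispersion grows. Undoing that prior gave an SE of 0.102 or 0.605 for rdh8b and of 0.232 or 0.266 for rlbp1b. The shares that follow therefore rank the deposited SEs and not the spread between pools. Among tested genes within 1.2 times its base mean, the SE of rlbp1b was above 99.9% of the others, that of stra6 above 99.3%, that of rpe65a above 99.1% and that of rdh5 above 96.3%. These SEs were 1.47 to 1.73 times the median SE of genes of like base mean. The other 6 genes had SEs above 34.1% to 67.0% of theirs. The grouping of the 4 was made after their values were seen, and the shares describe them with no test.

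The wide SEs set what could be called. At an absolute Wald statistic of 3.21, the smallest among called genes, rlbp1b needed an absolute log2 fold change of 0.40, stra6 and rpe65a 0.39 and rdh5 0.36. For the other 6 genes the smallest callable value lay between 0.24 and 0.28. On the deposited scale, an absolute value as large as that of rdh8b, 0.38, would not have been called for rlbp1b, stra6 or rpe65a.

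**Figure D2:**
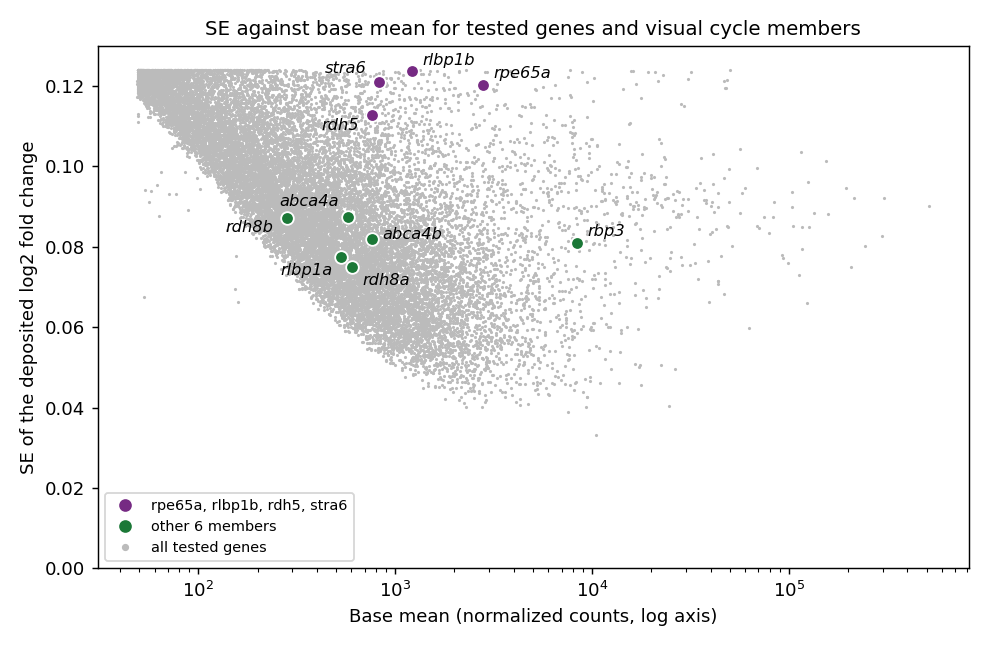
SE of the deposited log2 fold change (y axis, log2 units) against base mean (x axis, DESeq2-normalized counts, log axis) for all 19257 tested genes (grey) and the 10 visual cycle genes. The 4 purple points, rpe65a, rlbp1b, stra6 and rdh5, have SEs from 0.113 to 0.124, the upper edge, at base means from 764 to 2791, while the 6 green points lie inside the bulk of genes of like base mean.

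If the fold changes carried a normal prior, the upper edge of the SEs, 0.124, would put its standard deviation at 0.248. That value is 2 times the largest SE by formula and is no evidence of a prior. No source used here states that one was used. With that inferred prior undone, the log2 fold change of rdh8b was -0.45, and those of stra6, rpe65a, rlbp1b and rdh5 were -0.30, -0.27, -0.26 and -0.16, with Wald statistics and calls as deposited. These are the smaller of 2 solutions that the equation has for every gene. The larger one, added after seeing the data, gave -2.64 for rdh8b, -0.47 for stra6, -0.45 for rpe65a, -0.30 for rlbp1b and -0.39 for rdh5, and among the positive genes 1.75 for abca4b and 0.98 for rbp3. Which solution applies was not tested gene by gene, so no order of the genes is read from these values. The median deposited SE of tested genes fell with depth at first, from 0.120 near a base mean of 58.7 to 0.0920 near 282 and 0.0698 near 2791. At greater depth it was higher again, at 0.0804 near 8395, the base mean of rbp3, and 0.0882 near 14804. On the larger solution, the fall would mean an undone SE that rises with depth. On the smaller solution, the later rise would mean the same at great depth. The trend with depth therefore does not settle which solution applies, and the larger values are printed only as roots of the equation.

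Other genes of retinoid handling, the lists being given by their counts and medians only, included further isomerase, esterification, oxidation and carrier genes. Of 43 listed, 36 were in the table and 34 were tested, 24 negative and 10 positive, with a median of -0.08. One was called (2.94%), beside 2.68% of all tested genes. It was rbp4l, a homolog of the plasma retinol carrier gene, at -0.42 (SE 0.0998; DESeq2 adjusted p = 0.00231) and a base mean of 14804 according to the authors' deposited table. With the shift to equal sums the list had 19 negative and 15 positive members. The shift moves every gene by 0.05 log2 units towards positive values, and the split of all tested genes after it was not counted. The further rpe65 copies were named after their values were seen. They lie in tandem on chromosome 8 with 4193 bp between them, and neither was called in the authors' deposited table, where rpe65b stood at 0.12 (SE 0.0949; DESeq2 adjusted p = 0.654) and rpe65c at 0.02 (SE 0.115; DESeq2 adjusted p = 0.966). Wide SEs were found in this list too, with 12 of 34 genes above 90% of the tested genes of like base mean.

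Pigment epithelium markers, most of which also mark the melanophores of the skin, had mostly negative values. The part of skin melanophores in these values was not tested. Of 19 listed, all were in the table and 17 were tested. The authors' DESeq2 test called 0, beside 2.68% of all tested genes. An unadjusted p under 0.05 was found for 9, all of them negative, beside 13.0% of all tested genes, and 13 of the 17 were negative, with a median of -0.20. With the shift to equal sums 12 were negative and 5 positive, and the split of all tested genes after that shift was not counted. The log2 fold changes of the list ranged from -0.34 to 0.06. As deposited, the 4 positive members, named after their values were seen, were mitfb (0.06), mertka (0.06), otx2b (0.04) and otx2a (0.01). The lowest p belonged to tyrp1b, a melanosome enzyme gene, at -0.34 (SE 0.116; DESeq2 adjusted p = 0.0915) according to the authors' deposited table. SEs were wide here as well, with 9 of the 17 above 90% of the tested genes of like base mean.

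Markers of photoreceptors, the cells in which the RDH8, ABCA4 and RBP3 proteins are known to act or to be made, were mostly positive for rods and mixed for cones, while rdh8b was negative. Of 17 tested rod markers 16 were positive, with a median of 0.16, and 2 were called, both positive. That is 11.8% of the list, beside 0.758% of all tested genes called positive. They were the rod transducin gene gnat1 (0.29, SE 0.0764) and the disc rim gene prph2b (0.22, SE 0.0679) per the authors' deposited table (DESeq2 adjusted p = 0.0106 for gnat1 and 0.0445 for prph2b). Cone markers went both ways, with 7 of 28 tested members called positive and 5 called negative, which is 42.9% of them, and a median of 0.01. Over all tested genes 2.68% were called, 0.758% positive and 1.92% negative. By smallest adjusted p, the first 6 in the authors' deposited table included 2 negative genes like rdh8b, namely the cone arrestin gene arr3b (-0.75) and the phosphodiesterase gene pde6c (-0.30). The span of pde6c overlaps that of rbp4, an opposite-strand gene with a base mean of 28703, named after its values were seen. Whether reads of rbp4 entered the count of pde6c is not known. The opsin genes opn1mw2 (0.84) and opn1sw2 (0.48), the transducin gene gngt2a (0.54) and the channel gene cngb3.2 (0.41) were positive in the authors' deposited table. Several of these belong to families of close copies, and opn1mw2 lies in a tandem array. A list of 10 photoreceptor transcription factor genes had 0 calls in the DESeq2 test, where 2.68% of all tested genes were called. It had 4 members with an unadjusted p under 0.05, beside 13.0% of all tested genes, and a median of 0.12, with 9 members positive. The genes nrl and nr2e3, named after their values were seen, belong to the rod list too, and nrl is among the 4. With the shift to equal sums 2 members of the transcription factor list passed, where 573 of all 19257 tested genes were called, 355 of them positive. In this list neurod1 had the smallest p (0.19, SE 0.0717; DESeq2 adjusted p = 0.155) according to the authors' deposited table.

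Markers of other eye cell types had medians near 0. Positive values were found for 9 of 10 tested lens markers, 19 of 25 inner retina markers and 6 of 15 Müller glia markers. Among all 19257 tested genes 9519 were positive. Beside the counts of this paragraph, 2.68% of all tested genes were called and 13.0% had an unadjusted p under 0.05. Of 15 tested Müller glia markers the DESeq2 test called 0, with 3 at an unadjusted p under 0.05 and a median of -0.06. The glutamine synthetase gene glula had the lowest p among them, at -0.12 (SE 0.0461; DESeq2 adjusted p = 0.179) according to the authors' deposited table. Inner retina markers had a median of 0.03 over 25 tested genes, of which 2 (8.00%) were called and 4 had an unadjusted p under 0.05. These were the bipolar cell calcium-binding protein genes cabp5b (-0.32, SE 0.0912) and cabp5a (-0.35, SE 0.102), both negative per the authors' deposited table (DESeq2 adjusted p = 0.0234 for cabp5b and 0.0301 for cabp5a). Neither passed with the shift to equal sums. Lens markers had a median of 0.05 over 10 tested genes, with 0 called by DESeq2 and 0 at an unadjusted p under 0.05, and gja8b had the lowest p (0.09, SE 0.0820; DESeq2 adjusted p = 0.682) according to the authors' deposited table.

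Under the scaling by the robust spread that ended the call of rdh8b, the calls of rbp4l, gnat1, prph2b, cabp5a and cabp5b ended as well. Of the 12 cone genes, 6 kept theirs. Among all 19257 tested genes that scaling left 122 calls, where 516 were called as deposited, so most calls ended. With adjustment over every gene with a p-value, 1 of the 2 rod genes, gnat1, kept its call. That adjustment gave 433 calls over all genes. The part of photoreceptor or pigment cell numbers in the values of the visual cycle genes was not tested.

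**Figure D3:**
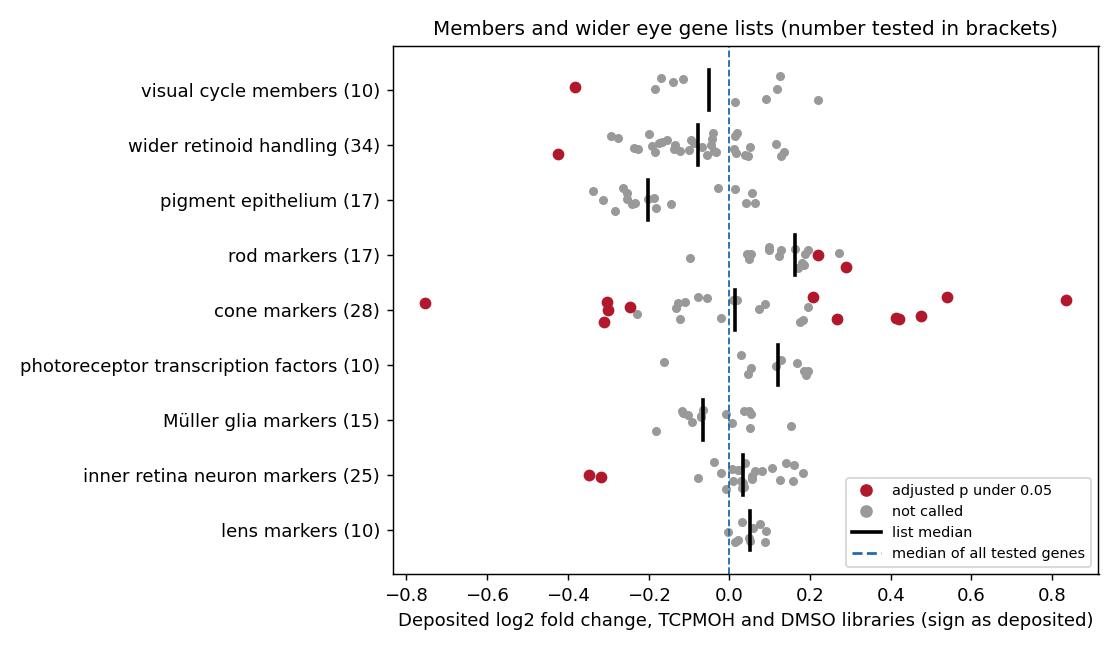
Deposited log2 fold change (x axis, sign as deposited) of every tested gene of the visual cycle set and of 8 wider lists of eye genes, with called genes in red, list medians as black bars and the median of all tested genes as a dashed line. Pigment epithelium genes lie mostly left of 0 (median -0.20) and rod markers right of it (median 0.16), while the visual cycle genes span both sides and rdh8b stands apart at -0.38.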

How the data were processed

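Messenger RNA libraries were made with a stranded kit from pools of whole larvae, per the labels' protocols. Per the submitters' processing notes, which give no versions, the authors used STAR, featureCounts and DESeq2 along with FastQC and cutadapt. Per the file headers, gene models were of version 4.3.2 and carry identifiers of Ensembl release 99. No source used here names the genome build or says whether coordinates count from 0 or 1. The authors deposited the base mean, a signal averaged over DESeq2-normalized counts, and a log2 fold change with its SE on the log2 scale. The deposited Wald statistic is a score, the ratio of fold change to SE. Each deposited p-value is the authors' Wald p-value, and Benjamini-Hochberg adjustment recomputed over 19257 genes came within 5.17e-06 of the deposited one.

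No value per library was used, so no count model, library check or depth per library could be had, and per-sample columns without a sample numbered 0. The 5 pools of a group come from 3 experimental replicates, per the series design, which does not say which, so the p-values measure only the spread between these pools. All 10 gene IDs matched RefSeq by Entrez ID and symbol.

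A gene was called at an adjusted p under 0.05. The 95% intervals are normal intervals on the deposited scale. The members and lists were chosen with earlier results of these data known. Named were all members, up to 6 called genes of each list by smallest adjusted p, or the gene of smallest p where none was called, and others are said to be chosen after their values were seen. The steps were tested on simulated data. That simulation used the same prior formula that was then undone, and it picked the solution from the known true values. It therefore did not test which solution applies to a gene. Its planted changes were large beside their SEs and larger than the median absolute log2 fold change of called genes here, 0.33. How often changes of that size are called was thus not tested. The software was Python 3.11.15 with numpy 2.4.6, pandas 2.3.3, matplotlib 3.10.9 and scipy 1.17.1.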

Additional observations from a re-analysis of the deposited data

How the results depend on the processing

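The count of called visual cycle genes was 1 as deposited, 2 with the fold changes shifted to equal sums (rdh8b and abca4b) and 0 under the statistics scaled by their own spread, where 2 had passed at an unadjusted p under 0.05 as deposited. Under that scaling the DESeq2 statistics gave 122 calls in all genes, 92 negative and 30 positive, and 6 over all wider lists in place of 17, as the construction widens the null. The shift to equal sums gave 573 calls among the 19257 tested genes, 218 negative and 355 positive, where 146 were positive as deposited. The call of rdh8b was kept with adjustment over every gene with a p-value, over base means of at least 100, at a threshold of 0.1 and after the shift. No sign of the 10 genes changed under these alternatives. With base means within 2 times in place of 1.2, a window chosen after seeing the data, the SEs of rlbp1b, stra6, rpe65a and rdh5 were above 95.9% to 99.9% of tested genes, and those of the other 6 above 33.2% to 64.4%. No paired analysis was possible because the deposited table holds no values per library. Leaving out replicates and a second counting tool were not run for the same reason.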
